A study of Homo sapiens with 6 samples.

Results

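The lysosome is the acidic compartment in which cells break down proteins, glycans, glycosaminoglycans and lipids. Its soluble hydrolases are made in the endoplasmic reticulum and many are sorted in the Golgi by mannose 6-phosphate receptors. Its limiting membrane is lined by heavily glycosylated proteins such as LAMP1 and LAMP2. The transcription factors TFEB and TFE3, when they are not held in the cytoplasm by signalling from mTORC1, bind E-box sequences in the promoters of many lysosomal genes. In liver cells the lysosome also takes part in the turnover of glycogen, lipoprotein lipid and damaged organelles.

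The 38 genes described here encode lysosomal hydrolases, their activators, membrane proteins of the lysosome and these 2 transcription factors. They were taken by gene symbol from the 27605 genes of the table, and all 38 symbols were found. By role they are 5 membrane proteins, 8 proteases, 9 glycosidases, 7 enzymes of glycosaminoglycan breakdown, 7 enzymes and activators of lipid breakdown and 2 transcription factors. RNA was sequenced from cells labelled HepG2, an established human hepatoma cell line. The 2 groups were a control (shNC, 3 libraries, genotype given as WT) and cells in which a lentivirus carried a short hairpin RNA against ARHGEF2 (shARHGEF2, 3 libraries, genotype given as ARHGEF2 knockdown). ARHGEF2 is an exchange factor that activates the small GTPase RhoA, and the comparison asks which transcripts differ after its knockdown. The labels do not say whether the 3 knockdown libraries share a hairpin or whether libraries came from separate cultures, so p-values measure the spread between these libraries, which may be technical. In bulk RNA, fewer cells of a type and less RNA per cell cannot be told apart.

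Levels are FPKM, that is fragments scaled to transcript length and to the mapped fragments of the library. Values after ± are SDs over the 3 libraries of a group. The knocked-down gene, ARHGEF2 (ENSG00000116584), had 13.0, 14.4 and 13.9 FPKM in the shNC libraries and 4.25, 4.004 and 4.82 FPKM in the shARHGEF2 libraries. It fell by 1.47 on the log2 scale (adjusted p = 0.00244 in limma). The threshold was missed when every gene was included (limma adjusted p = 0.0701) and without both shNC replicate 2 and shARHGEF2 replicate 1 (-1.42, limma adjusted p = 0.0688), although the groups did not overlap. Depth, estimated from the spacing of low FPKM values, lay between 20190000 and 23406000 read pairs per library. A doubled depth would give the same spacing and was left out of the search, so the values do not exclude it. The libraries correlated at 0.974 to 0.987 with each other on the log2 scale. They differed along GC content, most of all shNC replicate 2 (Spearman's rho across genes -0.465) and shARHGEF2 replicate 1 (rho 0.57), so values with that trend removed are given beside several members below. Of 18 hepatocyte markers, 8 were not found by symbol among the genes with values, ALB, APOB and TTR among them. Another 9 stayed under 1 FPKM in every library, AFP and HNF4A among them, and VTN alone was higher (5.51 to 6.60 FPKM). The defining markers of the labelled cell type were therefore near 0 or not found. The identity of the cells is taken from the labels, and it was not tested. Of 10 macrophage and leukocyte markers, cells rich in lysosomes, 8 were found by symbol and none reached 1 FPKM. Their summed level was 0.246 to 0.352 FPKM in shNC and 0.292 to 0.506 FPKM in shARHGEF2 libraries. The 9 fibroblast markers summed to 40.3 to 53.1 and 39.0 to 46.2 FPKM, of which LUM made up 22.5 to 39.0 FPKM. COL3A1 had 3.88 to 5.14 FPKM and DCN 1.56 to 2.66 FPKM, while PDGFRA did not exceed 0.00265 FPKM and COL1A2 did not exceed 0.0453 FPKM. COL1A1 was higher in every shARHGEF2 library (8.12 to 9.60 FPKM) than in any shNC library (6.08 to 6.81 FPKM), as was VTN, and their part in the results below was not tested. Of 9 squamous epithelial markers, 6 were found by symbol, and KRT17 reached 477 to 757 FPKM while TP63 did not exceed 0.0227 FPKM.

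Promoter sequence is shown first, because the E-box CACGTG and its longer form TCACGTGA, also when flanked by a further G and C, are sequences to which TFEB and TFE3 bind and because both factors are among the 38 genes. All 3 forms are palindromic, so both strands were searched at once, and every longer form also counts as a shorter one. RefSeq promoter windows of GRCh38.p14, 250 bases before to 50 bases after a start, were matched for 29 of the 38 genes. CACGTG was found in 9 of these 29 genes (31.0%), against 8.77% of all genes with a window and 12.9% of the genes tested. TCACGTGA was found in 5 of 29 (17.2%, against 1.18% and 2.32%) and the form flanked by G and C in 3 of 29 (10.3%, against 0.421% and 0.960%). The 9 genes were ARSB, CD63, CTSA, CTSD, GAA, GALNS, LAMP1, MCOLN1 and NEU1. A selection of the matches, with all of the longest form, is printed below as 30 bases on the gene's strand, 5′ to 3′, with the longest matching motif in capitals. Further matches are not printed, among them TCACGTGA in MCOLN1 (CACGTG 41 bases before the start) and in LAMP1 (1 base before the start).
GAA, chr17:80101493-80101522, plus strand, CACGTG 76 bases before the start: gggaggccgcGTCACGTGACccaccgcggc
GAA, chr17:80101538-80101567, plus strand, 31 bases before the start: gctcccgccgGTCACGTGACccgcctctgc
MCOLN1, chr19:7522598-7522627, plus strand, 14 bases before the start: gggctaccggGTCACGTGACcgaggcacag
GALNS, chr16:88857104-88857133, minus strand, 174 bases before the start: caggcaccgcGTCACGTGACccgccgctgg
LAMP1, chr13:113297199-113297228, plus strand, 28 bases before the start: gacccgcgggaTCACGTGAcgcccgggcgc
CTSA, chr20:45891298-45891327, plus strand, 25 bases before the start: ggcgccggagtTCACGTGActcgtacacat
CTSD, chr11:1763957-1763986, minus strand, 47 bases before the start: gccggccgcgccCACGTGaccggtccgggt
The longest palindrome thus occurred in GAA, where it was found at 2 places, in MCOLN1 and in GALNS. A match is a stretch of letters and not a measured binding site, and no match says only that these letters are not in the window.

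All 38 genes passed the filter on low values (mean 0.5 FPKM or more) and were tested. Their mean levels ran from 1.47 FPKM for ARSB to 449 FPKM for PSAP, with a median of 12.5 FPKM, against a median of 3.96 FPKM over all 12291 genes tested. Below 5 FPKM lay 9 genes, from 5 to 20 FPKM lay 14, from 20 to 100 FPKM lay 10, and 5 lay above 100 FPKM. Those 5 were PSAP, the precursor of the saposins that present sphingolipids to their hydrolases, CTSD, the lysosomal aspartic protease, CD63, a tetraspanin of late endosomes, and the cysteine proteases CTSZ and CTSL. Together they made up 67.8% of the summed mean FPKM of the 38 genes. At the other end, ARSB, CTSH, SCARB2, ASAH1, IDUA and SGSH stayed at means between 1.47 and 3.05 FPKM.

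None of the 38 genes was called between the groups at an adjusted p under 0.05 in limma, where 34 of all genes tested were (0.277%). That background was not stable, since it was 102 genes without shNC replicate 3, 6 to 15 without each of the other 5 libraries, 6 after median scaling and 1 with every gene included. At an unadjusted p under 0.05 there were 8 of the 38 genes, all 8 with the higher mean in shARHGEF2 cells and 0 with the lower. That is 21.1% of the members, against 13.7% of all genes tested in either direction, 8.1% in the higher direction and 5.55% in the lower. The fold change was above 0 for 30 of the 38 genes (78.9%, against 49.6% of all genes tested), and its median was 0.12 on the log2(FPKM + 1) scale, against -0.0016 over all genes tested. Among the 8995 other genes tested at levels between the lowest and the highest member, 15.3% had an unadjusted p under 0.05, 9.08% in the higher direction. Each of the 8 genes missed the adjusted threshold, the lowest adjusted p being 0.105 in limma. The number of members at an unadjusted p under 0.05 was 4 without shNC replicate 1 (where 9.62% of all genes tested had such a p), 4 without shARHGEF2 replicate 2 (9.59%) and 3 without shARHGEF2 replicate 3 (10.0%). With the GC content trend removed it was 7, or 18.4% against 18.8% of all genes tested in either direction and 9.92% in the higher direction, so that in either direction the members stood at the background. The median fold change stayed between 0.09 and 0.14 in the 6 fits that each left out 1 library.

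**Figure D1:**
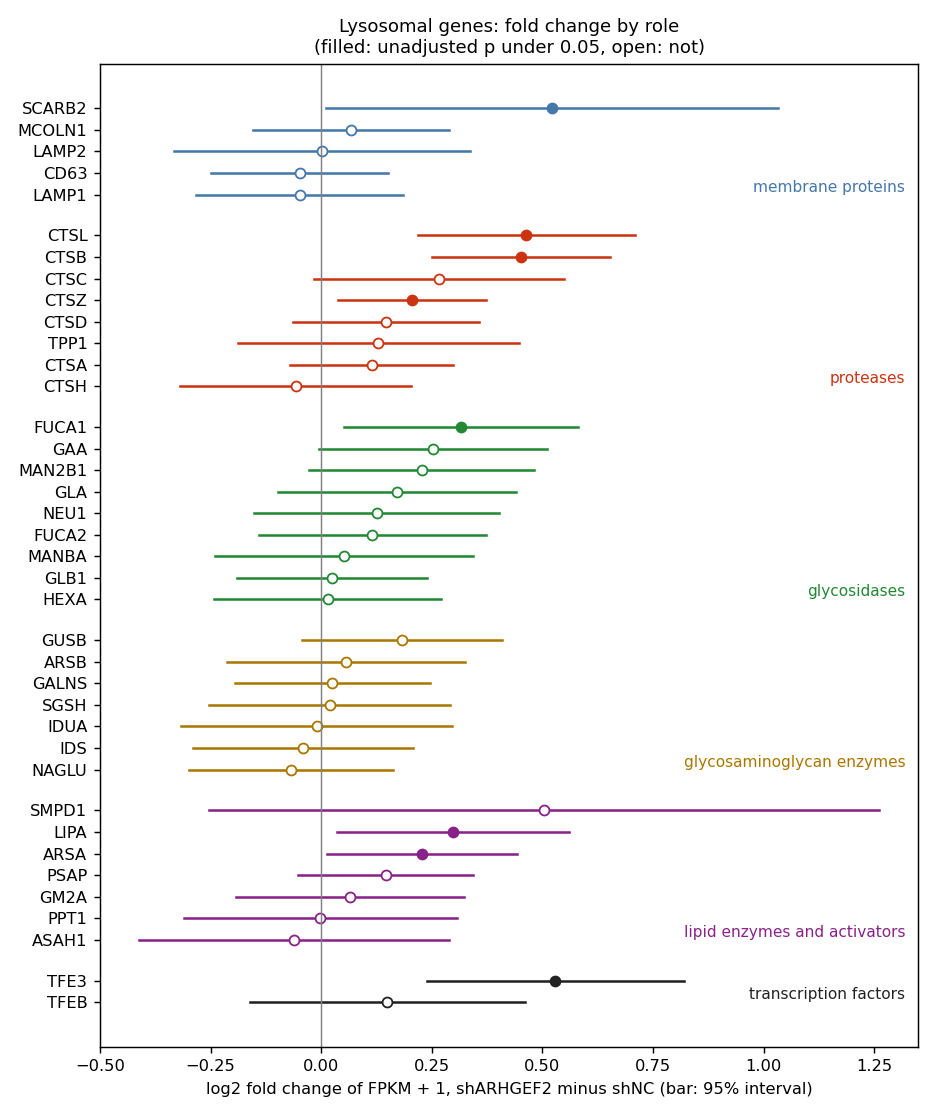
Log2 fold change of FPKM + 1 (horizontal axis, shARHGEF2 minus shNC) for the 38 genes, grouped and coloured by role, with bars for the 95% interval from limma. Filled points mark the 8 genes at an unadjusted p under 0.05, all to the right of 0, and open points mark the other 30.

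The groups did not overlap in 8 of the 38 genes, in each of which every shARHGEF2 library lay above every shNC library. Over all genes tested this held for 11.3% in the higher direction, for 9.17% in the lower direction and for 20.5% in either. The 8 genes were CTSB, CTSL, CTSZ, CTSA, TFE3, FUCA1, ARSA and GUSB, so 4 of them were proteases. The share of members without overlap (21.1%) was close to the background in either direction and differed from it in that no member lay on the lower side.

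Among the proteases, the cysteine cathepsins held the 2 members with the smallest p. CTSB (ENSG00000164733), which acts as an endopeptidase and also removes dipeptides from the C terminus, had 63.9, 59.4 and 58.2 FPKM in shNC and 83.9, 88.3 and 77.3 FPKM in shARHGEF2 libraries. The lowest knockdown library stood well above the highest control. The means were 60.5 ± 3.00 and 83.2 ± 5.52 FPKM (SD, n = 3 each), a ratio of 1.37 and a log2 fold change of 0.45 (standard error 0.09, 95% interval 0.25 to 0.65). Its unadjusted p was 7.19e-04 and its adjusted p = 0.105 in limma, and with the GC content trend removed the fold change was 0.43 (unadjusted p = 0.00116 in limma).

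CTSL (ENSG00000135047), a strong endopeptidase of the lysosome, had 98.4, 106 and 119.7 FPKM in shNC and 133, 157 and 158 FPKM in shARHGEF2 libraries. The groups were separate, and shARHGEF2 replicate 1 was the lowest of its group. The means were 108 ± 10.8 and 149 ± 14.4 FPKM, with a log2 fold change of 0.46 (SE 0.11, limma adjusted p = 0.127). CTSZ (ENSG00000101160), a carboxypeptidase, had 162, 159.8 and 165 FPKM in shNC and 184, 189 and 189 FPKM in shARHGEF2 libraries. Of the 5 members above 100 FPKM it had the smallest SD within each group, and the groups were separate although the difference was small. Its log2 fold change was 0.21 (SE 0.07, limma adjusted p = 0.271), and with the GC content trend removed it was 0.15 with an unadjusted p of 0.0592 in limma.

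CTSC (ENSG00000109861), the dipeptidyl peptidase that activates granule serine proteases, had 9.85, 9.45 and 10.5 FPKM in shNC and 10.2, 13.3 and 13.3 FPKM in shARHGEF2 libraries. Here shARHGEF2 replicate 1 lay inside the control range and the other two lay above it. The log2 fold change was 0.27 (SE 0.12, limma adjusted p = 0.394), and it was 0.29 with the GC content trend removed (unadjusted p = 0.0312 in limma). CTSD (ENSG00000117984), the most abundant protease, had 334, 331 and 307 FPKM in shNC and 382, 322 and 374 FPKM in shARHGEF2 libraries, so the groups overlapped. On the log2 scale the difference was 0.15 (95% interval -0.06 to 0.36, adjusted p = 0.542 in limma), with 0.22 without shARHGEF2 replicate 2 and 0.089 with the GC content trend removed. Among the other proteases, the serine carboxypeptidase CTSA, which also protects GLB1 and NEU1, had means of 35.97 and 39.0 FPKM. The tripeptidyl peptidase TPP1 had 10.7 and 11.9 FPKM and the aminopeptidase CTSH had 1.67 and 1.57 FPKM. Of the 8 proteases, 3 had an unadjusted p under 0.05 on the higher side (37.5%, against 8.1% of all genes tested). A fold change above 0 was found for 7 of the 8 proteases (87.5%, against 49.6% of all genes tested). Their summed level was 716, 715 and 708 FPKM in shNC and 842, 826 and 864 FPKM in shARHGEF2 libraries, a ratio of 1.18 to which CTSL, CTSB, CTSD and CTSZ contributed nearly all.

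Of the 2 transcription factors, TFE3 (ENSG00000068323) had 44.2, 40.7 and 56.9 FPKM in shNC and 65.9, 72.5 and 65.5 FPKM in shARHGEF2 libraries. The groups did not overlap, and shNC replicate 3 stood nearest to the knockdown libraries. The means were 47.2 ± 8.52 and 68.0 ± 3.95 FPKM, a ratio of 1.44 and a log2 fold change of 0.53 (standard error 0.13, 95% interval 0.24 to 0.82, adjusted p = 0.136 in limma). TFE3 was the only member called when a library was left out, and this happened only without shNC replicate 3 (log2 fold change 0.67, adjusted p = 0.0415 in limma). The 15 alternatives put its adjusted p at 0.0415 to 0.457 in limma. TFEB (ENSG00000112561), its relative, was less abundant at 4.39, 4.05 and 5.68 FPKM in shNC and 5.75, 4.86 and 5.26 FPKM in shARHGEF2 libraries. The groups overlapped, and the log2 fold change was 0.15 (95% interval -0.16 to 0.46, adjusted p = 0.691 in limma). The value for TFEB depended on single libraries, with 0.067 without shNC replicate 2, 0.27 without shNC replicate 3 and 0.097 without shARHGEF2 replicate 1, and it was 0.094 with the GC content trend removed. On the FPKM scale TFE3 was above TFEB in every library. Means of 0.810 ± 0.109 and 0.694 ± 0.204 FPKM were found for MITF, another factor of the family (limma adjusted p = 0.792).

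**Figure D2:**
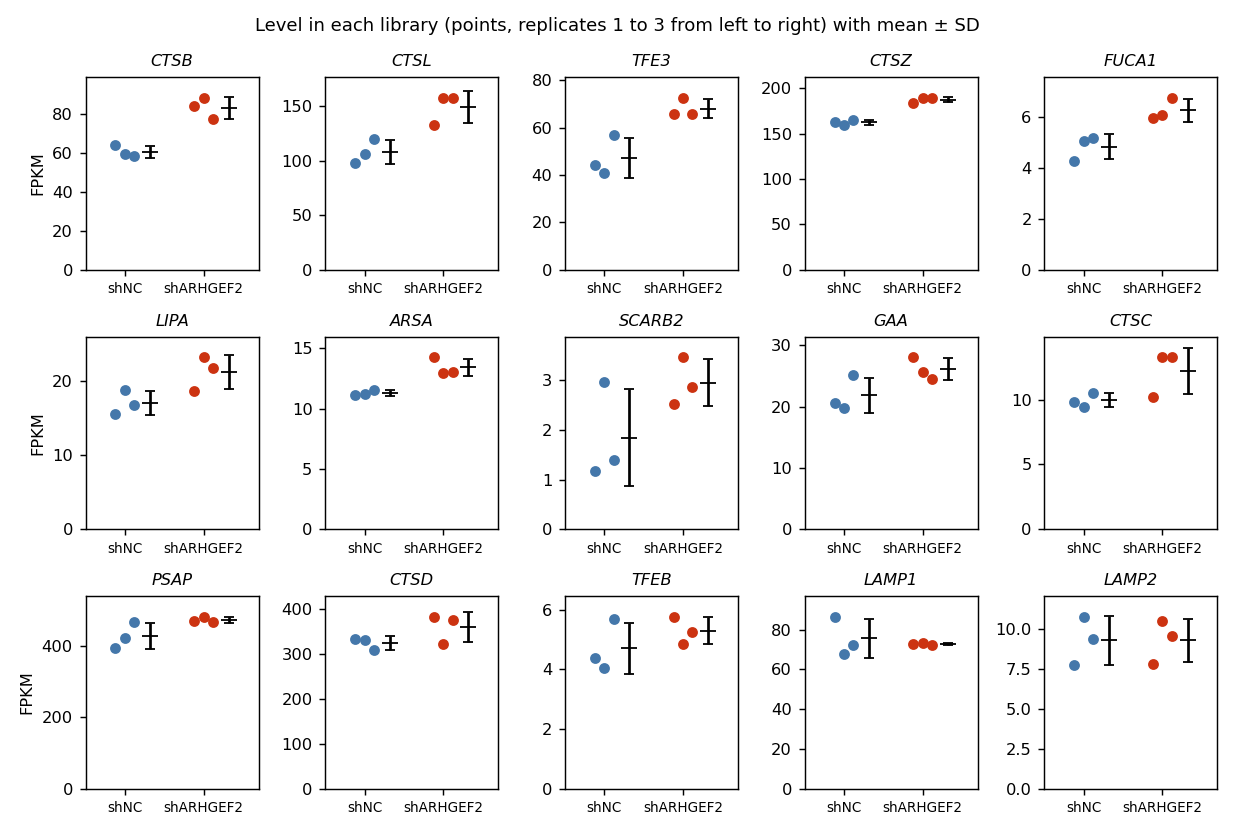
FPKM in each library (vertical axis from 0, points for replicates 1 to 3 from left to right, blue shNC and red shARHGEF2) for 15 genes, with mean ± SD in black. CTSB, CTSL, TFE3, CTSZ, FUCA1 and ARSA show no overlap between the groups, while the groups overlap in LAMP1 and LAMP2.

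The 2 classical markers of the lysosomal membrane did not differ beyond the spread between libraries. LAMP1 (ENSG00000185896) had 86.4, 68.0 and 72.3 FPKM in shNC and 72.6, 73.2 and 72.1 FPKM in shARHGEF2 libraries. The shNC libraries spread on both sides of the knockdown libraries. Its log2 fold change was -0.05 (95% interval -0.28 to 0.18, adjusted p = 0.887 in limma), and it was 0.05 without shNC replicate 1. LAMP2 (ENSG00000005893) had 7.76, 10.8 and 9.39 FPKM in shNC and 7.83, 10.5 and 9.58 FPKM in shARHGEF2 libraries, with means of 9.31 ± 1.51 and 9.31 ± 1.37 FPKM. The log2 fold change was 0.0016 (95% interval -0.33 to 0.34, adjusted p = 0.999 in limma), and its sign turned under 5 of 15 alternatives.

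SCARB2 (ENSG00000138760), which carries glucocerebrosidase to the lysosome, was low and variable at 1.16, 2.96 and 1.399 FPKM in shNC and 2.53, 3.46 and 2.86 FPKM in shARHGEF2 libraries. Only shNC replicate 2 lay within the knockdown range. The log2 fold change was 0.52 (SE 0.22, limma adjusted p = 0.359). It was 0.79 without shNC replicate 2 (adjusted p = 0.158 in limma) and 0.35 without shNC replicate 1 (adjusted p = 0.644 in limma). Of the fits that left out 1 library, only that without shNC replicate 2 gave an unadjusted p under 0.05 in limma. CD63 had means of 179 and 173 FPKM, and MCOLN1, a calcium-permeable channel of the lysosomal membrane, had 10.7 and 11.2 FPKM. The summed level of the 5 membrane proteins was 256 to 290.2 FPKM in shNC and 261 to 278 FPKM in shARHGEF2 libraries, so the knockdown range lay inside the control range. This differs from the proteases in description only, since no test of the difference between roles was made.

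The 9 glycosidases trim sugars from glycogen, glycoproteins and glycolipids. All 9 had a fold change above 0 (49.6% of all genes tested did), from 0.01 for HEXA to 0.32 for FUCA1. Of these 9, 1 had an unadjusted p under 0.05 (11.1%, against 8.1% of all genes tested in the higher direction). FUCA1 (ENSG00000179163), the lysosomal fucosidase, had 4.30, 5.05 and 5.21 FPKM in shNC and 5.97, 6.08 and 6.78 FPKM in shARHGEF2 libraries. The groups were separate. The fold change on the log2 scale was 0.32 (SE 0.12, limma adjusted p = 0.283), and with the GC content trend removed it was 0.33 (unadjusted p = 0.00737 in limma). The unadjusted p of FUCA1 in limma was 0.084 without shNC replicate 1 and 0.106 without shARHGEF2 replicate 3. FUCA2, its secreted relative, had means of 29.6 and 32.2 FPKM with overlap. GAA (ENSG00000171298), the acid glucosidase that degrades glycogen, had 20.6, 19.8 and 25.1 FPKM in shNC and 28.0, 25.7 and 24.6 FPKM in shARHGEF2 libraries. Only shARHGEF2 replicate 3 fell inside the control range. The log2 fold change was 0.25 (95% interval -0.01 to 0.51, adjusted p = 0.376 in limma), and with the GC content trend removed it was 0.19. The mannosidase MAN2B1 had means of 26.1 and 30.6 FPKM (adjusted p = 0.419 in limma), the galactosidase GLA 6.34 and 7.26 FPKM and the sialidase NEU1 13.0 and 14.2 FPKM. For the galactosidase GLB1 (29.7 and 30.3 FPKM), the hexosaminidase subunit HEXA (9.54 and 9.64 FPKM) and the mannosidase MANBA (3.97 and 4.17 FPKM) the sign of the difference was not stable when libraries were left out.

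The enzymes of glycosaminoglycan breakdown had the narrowest range of fold changes of the 6 roles, from -0.07 for NAGLU to 0.18 for GUSB. Of the 7, 4 had a fold change above 0 (57.1%, against 49.6% of all genes tested) and 3 below. None of the 7 had an unadjusted p under 0.05, against 13.7% of all genes tested. GUSB, the glucuronidase, had 16.6, 19.0 and 18.3 FPKM in shNC and 21.7, 19.0 and 20.9 FPKM in shARHGEF2 libraries, whose unrounded values did not overlap (adjusted p = 0.462 in limma). Its expressed copies GUSBP1 and GUSBP11 had means of 0.587 and 0.634 FPKM, and their share of its reads is uncertain. NAGLU, which removes N-acetylglucosamine from heparan sulfate, had means of 31.2 and 29.7 FPKM. The sulfatases IDS (3.62 and 3.49 FPKM), ARSB (1.42 and 1.52 FPKM), SGSH (3.03 and 3.07 FPKM) and GALNS (8.33 and 8.48 FPKM) and the iduronidase IDUA (3.03 and 2.99 FPKM) were within the spread between libraries. The summed level of the 7 enzymes was 66.1 to 71.8 FPKM in shNC and 65.5 to 73.8 FPKM in shARHGEF2 libraries.

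Among the lipid enzymes and activators, LIPA (ENSG00000107798), the acid lipase that hydrolyses cholesteryl esters and triglycerides, had 15.6, 18.8 and 16.8 FPKM in shNC and 18.7, 23.2 and 21.8 FPKM in shARHGEF2 libraries. The lowest knockdown library, replicate 1, lay just below the highest control, shNC replicate 2. The log2 fold change was 0.30 (SE 0.12, limma adjusted p = 0.313), and with the GC content trend removed it was 0.32 (adjusted p = 0.0747 in limma). With 1 library left out it lay between 0.23 and 0.38. Its unadjusted p in limma was then under 0.05 only without shNC replicate 2 or without shARHGEF2 replicate 1. ARSA (ENSG00000100299), the sulfatase that degrades sulfatide, had 11.1, 11.2 and 11.6 FPKM in shNC and 14.2, 12.9 and 13.0 FPKM in shARHGEF2 libraries, without overlap. Its log2 fold change was 0.23 (SE 0.09, limma adjusted p = 0.343), and with the GC content trend removed it was 0.17 (unadjusted p = 0.0517 in limma). With 1 library left out, the unadjusted p of ARSA in limma lay between 0.0537 and 0.125, so no such fit put it under 0.05.

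PSAP (ENSG00000197746), the most abundant member, had 393, 422 and 466 FPKM in shNC and 468, 480.0 and 466 FPKM in shARHGEF2 libraries. The knockdown libraries stood together at the level of the highest control. The log2 fold change was 0.15 (95% interval -0.05 to 0.34, adjusted p = 0.509 in limma), and 0.088 without shNC replicate 1. SMPD1, the acid sphingomyelinase, had the widest interval of the 38 genes, with 11.4, 6.05 and 13.9 FPKM in shNC and 11.8, 12.8 and 20.04 FPKM in shARHGEF2 libraries. The fold change on the log2 scale was 0.50 (95% interval -0.25 to 1.26), and 0.19 without shNC replicate 2. The acid ceramidase ASAH1 (2.71 and 2.55 FPKM), the ganglioside activator GM2A (8.70 and 9.16 FPKM) and the thioesterase PPT1 (32.7 and 32.4 FPKM) were within the spread between libraries.

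In GENCODE, exons of 6 members overlap those of other genes tested, so that the levels of these members are less certain. The pairs are LIPA and IFIT2, CTSA and PLTP, MCOLN1 and PNPLA6, PPT1 and CAP1, GALNS and TRAPPC2L, and SGSH and SLC26A11. Only PNPLA6 is on the same strand as its member. Exons of CTSD, GLB1, HEXA, IDS, MAN2B1 and MCOLN1 overlap protein-coding genes of the same strand that were not tested, which carries the same doubt. Some other members overlap untested noncoding or opposite-strand genes.

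Exact permutation tests of the 15 genes drawn by library gave two-sided p-values between 0.1 and 1, and 0.1 is the smallest that 3 libraries against 3 allow. CTSB, CTSL, TFE3, CTSZ, FUCA1 and ARSA reached that value. Summed over all 38 genes, the level was 1731, 1737 and 1829 FPKM in shNC and 1959.9, 1977 and 2009.7 FPKM in shARHGEF2 libraries. As a share of all FPKM in a library it was 0.494% to 0.560% in shNC and 0.586% to 0.623% in shARHGEF2 libraries. These sums are a description and were not tested, and they weigh the few abundant genes most.

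**Figure D3:**
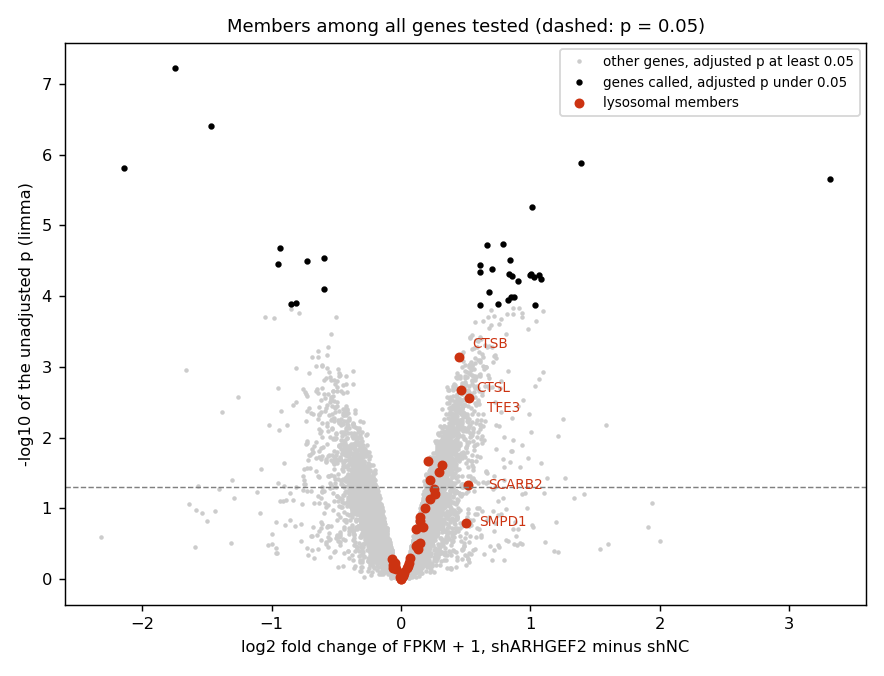
Log2 fold change of FPKM + 1 (horizontal axis) against -log10 of the unadjusted p from limma (vertical axis) for all 12291 genes tested, with the 34 genes called in black and the 38 lysosomal genes in red. CTSB, CTSL and TFE3 stand highest among the red points, and all red points lie below the black ones.

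The members were also split by promoter motif. Over all genes tested, 13.7% had an unadjusted p under 0.05, 8.1% in the higher direction, and 49.6% had a fold change above 0. Of the 9 genes with CACGTG in a window, 0 had an unadjusted p under 0.05. In this group 7 had a fold change above 0 (77.8%), and the median was 0.07 on the log2 scale. Of the 20 genes with a window but without CACGTG, 6 had an unadjusted p under 0.05 (30%), namely CTSL, TFE3, CTSZ, FUCA1, LIPA and SCARB2. A fold change above 0 was found in 16 of these 20 (80%), and the median was 0.18. The remaining 9 genes had no matched window. Of these, 2 had an unadjusted p under 0.05 (22.2%), namely CTSB and ARSA. In this group 7 had a fold change above 0 (77.8%), and the median was 0.02. GAA, with the longest palindrome at 2 places, had a fold change of 0.25, while MCOLN1 and GALNS, with 1 each, had 0.07 and 0.02. LAMP1, with TCACGTGA 28 bases and 1 base before the start and further CACGTG matches, had -0.05. No test was made of this split. The 38 genes had a median GC content of 54.3% over their transcripts, against 51.6% over all genes tested. With the GC content trend removed, 7 members had an unadjusted p under 0.05, of which 6 were among the 8 above (CTSB, CTSL, TFE3, FUCA1, LIPA and SCARB2), and CTSC was the seventh.

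The lysosome was followed further in 7 lists of related genes, of which 120 genes were found by symbol and 106 tested. The counts below are to be read against all genes tested, of which 8.1% were higher and 5.55% lower at an unadjusted p under 0.05 and 49.6% had a fold change above 0. Of 19 tested genes for other hydrolases, none was called and 4 had an unadjusted p under 0.05 (21.1%), each with the higher mean in shARHGEF2 cells, and 16 had a fold change above 0 (84.2%, median 0.13). CPVL, a carboxypeptidase, had 0.830, 0.813 and 0.889 FPKM in shNC and 1.29, 1.82 and 1.74 FPKM in shARHGEF2 libraries (log2 fold change 0.50, adjusted p = 0.137 in limma). The asparaginyl endopeptidase LGMN, which processes cathepsins, had 21.6, 20.6 and 19.99 FPKM in shNC and 24.1, 26.7 and 24.8 FPKM in shARHGEF2 libraries (log2 fold change 0.27, adjusted p = 0.249 in limma). In both genes every knockdown library lay above every control library. Of 20 tested genes in the list of other lysosomal membrane proteins, which also holds the soluble NPC2, 3 were on the higher and 2 on the lower side at an unadjusted p under 0.05. The chloride-proton exchanger CLCN7 had 12.7 ± 0.526 and 15.8 ± 0.928 FPKM (adjusted p = 0.238 in limma), and the cholesterol transporter NPC1 had 9.55 ± 1.74 and 12.6 ± 0.291 FPKM (adjusted p = 0.255 in limma).

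For the V-ATPase, the proton pump of the lysosome, none of its 18 tested subunits and accessory proteins had an unadjusted p under 0.05, 8 had a fold change above 0 and 10 below, and the median was -0.01. The 2 with the smallest p were ATP6AP1 (79.1 and 92.8 FPKM, adjusted p = 0.395 in limma) and ATP6V0E1 (62.4 and 53.1 FPKM, adjusted p = 0.400 in limma). In the list of enzyme sorting and activation, 1 of 14 genes had an unadjusted p under 0.05, and it was on the lower side. This was M6PR, the cation-dependent mannose 6-phosphate receptor, with 33.7, 41.5 and 33.5 FPKM in shNC and 33.0, 19.1 and 18.0 FPKM in shARHGEF2 libraries. Replicates 2 and 3 of the knockdown lay far below the controls, and replicate 1 lay just below the lowest control. Its log2 fold change was -0.66 (SE 0.22, limma adjusted p = 0.264). With 1 library left out it lay between -0.92 and -0.50, with adjusted p between 0.0615 and 0.550 in limma. Without shNC replicate 2, shARHGEF2 replicate 2 or shARHGEF2 replicate 3, no gene of this list, M6PR included, had an unadjusted p under 0.05 in limma. SUMF2, related to the enzyme that activates sulfatases, had 44.2 and 50.1 FPKM (adjusted p = 0.408 in limma).

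The list of nutrient sensing on the lysosomal surface also holds the calcineurin genes PPP3CA, PPP3CB and PPP3R1. Of its 18 tested genes, 2 were on the higher and 1 on the lower side at an unadjusted p under 0.05, with a median of -0.06. LAMTOR5, a subunit of the Ragulator scaffold, had 21.1, 21.3 and 23.8 FPKM in shNC and 26.9, 30.5 and 32.2 FPKM in shARHGEF2 libraries (log2 fold change 0.42, adjusted p = 0.141 in limma). The Rag GTPase RRAGB had 2.28 ± 0.420 and 1.58 ± 0.301 FPKM (adjusted p = 0.347 in limma).

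Autophagy was the list with the largest median fold change (0.20) of the 7 lists, with 13 of its 16 tested genes above 0 (81.2%, against 49.6% of all genes tested) and 4 at an unadjusted p under 0.05 (25%, against 8.1%), each with the higher mean in shARHGEF2 cells. It held the only gene of the 7 lists that was called. ULK1 (ENSG00000177169), the kinase that starts autophagy, had 18.1, 18.1 and 22.9 FPKM in shNC and 36.6, 36.4 and 34.0 FPKM in shARHGEF2 libraries. The groups were far apart. The means were 19.7 ± 2.76 and 35.7 ± 1.46 FPKM, a ratio of 1.81 and a log2 fold change of 0.83 (SE 0.11, limma adjusted p = 0.0302). ULK1 was called in 5 of 15 alternatives and in 1 of the 6 fits that left out 1 library, that without shNC replicate 3 (adjusted p = 0.0164 in limma). In the other 5 of these fits, without shNC replicate 1 or 2 or shARHGEF2 replicate 1, 2 or 3, its adjusted p reached 0.116 in limma, and its fold change stayed between 0.78 and 0.94 in all 6. SQSTM1, the autophagy receptor, is named here after its values were seen. It had 173, 159 and 243 FPKM in shNC and 281, 339 and 266 FPKM in shARHGEF2 libraries, without overlap. The fold change on the log2 scale was 0.64 (adjusted p = 0.158 in limma), and without shNC replicate 3 it was 0.82 (adjusted p = 0.0434 in limma).

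**Figure D4:**
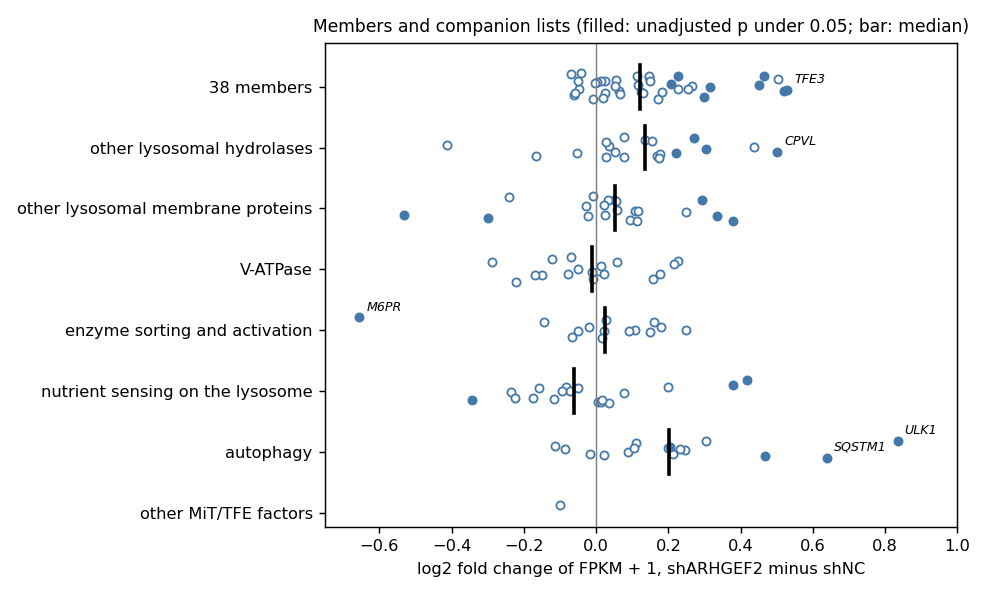
Log2 fold change of FPKM + 1 (horizontal axis, shARHGEF2 minus shNC) of the 38 members and of each tested gene in the 7 related lists, 1 point per gene with filled points for an unadjusted p under 0.05 and a bar for the median. The medians of autophagy (0.20), other hydrolases (0.13) and the members (0.12) lie above 0, and those of the V-ATPase (-0.01) and of nutrient sensing (-0.06) lie below.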

How the data were processed

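The table holds 1 FPKM value per gene and library, deposited by the authors. The submitters' processing notes name cutadapt 1.9, HISAT2 2.0.4, UMI-tools, StringTie 1.3.4d, DESeq2, edgeR and build hg19, without roles. The annotation release is not given in the sources used here. The authors' fold changes and p-values were not used. Groups and replicate numbers came from the sample titles. Of the transcripts listed, 94.7% were found in GENCODE 29, from which GC content was taken.

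Genes whose mean reached 0.5 FPKM were compared on log2(FPKM + 1) with limma 3.58.1 (R 4.3.3, statmod 1.5.0, trended and robust variances, no block). Benjamini-Hochberg adjustment ran over all 12291 genes tested. A gene counted as called when its adjusted p was under 0.05. A pseudocount of 1 pulls the fold changes of low genes towards 0. The fit was tested on simulated data. No test for counts was run, since FPKM are not counts, and between 33.8% and 35.3% of low values lay within 0.1 of a whole number of the estimated read pairs, so that depth is approximate. The depth was chosen to fit the spacing of these same values, so this share is no separate check of it. For single genes an exact two-sided permutation test of the 6 FPKM values was added.

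Described in full are members at an unadjusted p under 0.05, LAMP1, LAMP2, CTSD, CTSB, PSAP, TFEB and TFE3, and the next by p up to 15 genes. In the related lists the genes called are described in full, or, where none was called, the 2 of smallest p of the list. The members and lists were chosen with earlier results of these data known. Sequences are from RefSeq (GRCh38.p14), matched by symbol, and protein sequences were not used here. Summaries used pandas 2.3.3 with numpy 2.4.6 under Python 3.11.15, and figures matplotlib 3.10.9.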

Additional observations from a re-analysis of the deposited data

How the results depend on the processing

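Alternatives to the settings above were the replicate number as a block, 0.1 as pseudocount, every gene with a value above 0, only genes with 1 FPKM in 3 libraries, quantile normalization, median scaling, plain limma variances, and each library left out in turn. Removal of the GC content trend and leaving out shNC replicate 2 together with shARHGEF2 replicate 1 were chosen after seeing the data. The median fold change of the 38 genes was above 0 in all 15. No member was called in 14 of them, the count being 0 to 1 with a library left out. The number of members at an unadjusted p under 0.05, all on the higher side, was 3 to 8 with 1 library left out, 9 with both left out and 6 to 10 otherwise.

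With the replicate block, 10 members had an unadjusted p under 0.05, 0 genes were called over the whole table against 34 (1976 had an unadjusted p under 0.05), and ARHGEF2 stood at -1.47 (limma adjusted p = 0.0716). Deviations of libraries with the same number correlated at 0.184, 0.159 and -0.105. The labels tie the numbers to nothing shared and 1 of the 3 correlations was not above 0.1, so the numbers were not used as pairs. As a hint from the data, 4 of 6 libraries correlated best with their own number, and whether the numbers mark a shared factor was not tested further. ARHGEF2 also missed the threshold with every gene included (-1.47, limma adjusted p = 0.0701) and without both libraries (-1.42, limma adjusted p = 0.0688), and lay between -1.53 and -1.42 with libraries left out. The number of genes called was 1 with every gene included, 54 with the 1 FPKM filter, 19 after quantile normalization, 6 after median scaling, 7 with plain variances, 8 without both libraries and 6 to 102 with 1 library left out. The causes were not tested.

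Signs turned in 15 members, whose fold changes lay between -0.06 and 0.13. With 1 library or both left out, they ranged from -0.018 to 0.25 for TPP1, -0.0099 to 0.11 for GM2A, -0.098 to 0.031 for CTSH, -0.12 to 0.050 for LAMP1, -0.0057 to 0.16 for ARSB, -0.18 to 0.076 for ASAH1, -0.016 to 0.17 for MANBA, -0.073 to 0.019 for IDS, -0.024 to 0.091 for GLB1, -0.0045 to 0.043 for GALNS, -0.032 to 0.10 for SGSH, -0.050 to 0.069 for HEXA, -0.11 to 0.057 for IDUA, -0.087 to 0.18 for PPT1 and -0.11 to 0.21 for LAMP2. With the GC content trend removed the value was -0.027 for GALNS, -0.037 for SGSH and 0.019 for PPT1. Quantile normalization gave -0.0071 for HEXA and -0.012 for LAMP2, and median scaling gave -8.73e-04 for LAMP2.

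With 3 libraries a group, a p above the threshold does not show that a gene was equal between the groups.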
